A study of Mus musculus with 45 samples.

Results

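Hippocampal RNA of 12-month-old mice was compared between 7 libraries with 5xFAD and 3 without it, none of them with Csf1r-Cre in the title, out of 45 libraries in the series. Every mouse of both groups carried Apoe(fl/fl), copies of Apoe flanked by loxP sites that stay intact unless Cre is present. 5xFAD is a transgenic model of amyloid pathology: it expresses human transgenes, APP among them, with familial Alzheimer's disease mutations under the neuron-directed Thy1 promoter, so its amyloid comes from overexpression and not from the mouse genes. The members were chosen by sample title alone, and the table columns were joined to them by the names in the sample descriptions. Where age or Csf1r-Cre is brought in, the groups were the 4-month Apoe(fl/fl) mice (5 with 5xFAD, 8 controls) and the 12-month Apoe(fl/fl) mice with Csf1r-Cre, which drives Cre in microglia and other myeloid cells (5 with 5xFAD, 7 controls). The check of the labels also used the 4-month Apoe(fl/fl) mice with Csf1r-Cre (4 with 5xFAD, 6 controls). The labels give neither sex nor litter and do not tie a library to an animal of its own, so the p-values below describe the spread between libraries, part of which may be technical.

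Amyloid plaques gather microglia, the resident macrophages of the brain. These cells sense plaque lipids and proteins through the receptor TREM2 and its signalling adaptor TYROBP, lower part of the gene programme of resting microglia, and raise genes for phagocytosis, lysosomal breakdown and lipid handling. Astrocytes near plaques raise intermediate filament and acute-phase genes, both cell types make complement, and antigen presentation genes are known to rise in aged amyloid models.

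The labels of the 5xFAD group were checked first, because the strain entry of all 7 samples names Csf1r-Cre while none of the 7 titles does. In the mean of the 2 contrasts of Csf1r-Cre against no Cre at 4 months, 16 genes passed the test, and 10 of them also separated every 12-month library titled Csf1r-Cre from every 12-month control. All 7 5xFAD libraries lay on the no-Cre side for all 10 of those genes. One 4-month control library titled Csf1r-Cre, replicate 6, was itself at the no-Cre level of Rps2-ps10, at 1.76 TPM against 251 to 409 TPM in the other 5. Leaving it out of the shared fit gave 300 higher and 22 lower genes in the comparison below, and Gpr34 and Rab40c then missed the threshold (adjusted p = 0.0524 and 0.0501). Among the 10 separating genes, Rps2-ps10, a processed pseudogene of a ribosomal protein gene, had 1.07 to 3.18 TPM in the 7 5xFAD libraries and 1.72 to 3.27 TPM in the 3 controls. Every 12-month library titled Csf1r-Cre had 247 TPM or more. Atp6v0c, a subunit of the proton pump that acidifies lysosomes, had 330 to 414 TPM in the 7 libraries and 295 to 463 TPM in the controls, against 111 to 212 TPM in the 12-month libraries titled Csf1r-Cre. These levels went with the titles and not with the strain entry. Y-linked transcripts summed to at least 10 TPM in 3 of the 7 5xFAD libraries and in 1 of the 3 controls, so both groups held libraries with and without them.

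Thy1 (a neuronal surface protein whose promoter drives the transgenes; chr9:44043384-44048579, mm10) had 634, 1214 and 791 TPM in control replicates 1, 2 and 3 and 1420.1 to 2525 TPM (median 1945) in the 5xFAD libraries. Every 5xFAD library was above every control, with a log2 difference of 1.14 (exact two-sided permutation p = 0.00833, adjusted over 3 genes p = 0.025; 0.00833 is the smallest p that 120 arrangements of 7 and 3 libraries can give). App, the mouse amyloid precursor gene (chr16:84949685-85173766), had 437, 896 and 323 TPM in the controls and 332 to 704 TPM (median 544) with 5xFAD, a log2 difference of 0.0015 (exact permutation p = 0.983, adjusted p = 0.983). The mouse annotation does not list the human transgenes, and how their reads were assigned is not given in the sources used here. Apoe, the lipid carrier made by astrocytes and by plaque-associated microglia (chr7:19696109-19699188), had 3456, 2898 and 2729 TPM in the controls and 2793 to 4895 TPM (median 3805) with 5xFAD. Its groups overlapped: 5 of 7 5xFAD libraries lay above the highest control, and the log2 difference of 0.38 did not pass (exact permutation p = 0.0917, adjusted p = 0.138).

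The 10 libraries held 15663501 to 21109345 reads in genes, as recovered from the TPM, a level scaled for gene length and for the total of the library. At a length of 1000 bases a single read stood for 0.0573 to 0.0838 TPM. Control replicate 2 stood apart: its median correlation with the other libraries was 0.939 (across genes, log2 scale), against 0.963 to 0.975 for the 5xFAD libraries, and it was the lowest control for 225 of the 306 genes described next. Several immune transcripts are listed at 0 in that library. Of 5635 genes with at least 5 TPM in every other library of the series, 0 were listed at 0 there. Those immune transcripts were not among the 5635, so this count cannot decide whether their values of 0 come from missed reads. Of the 5635 genes, 2 lay far under the lowest other library, against 0 in the same check of each other control and 5xFAD library. The tissue content of the controls also differed. Striatal markers summed to 6606, 8484 and 285 TPM in control replicates 1, 2 and 3 and to 335 to 2729.5 TPM (median 479) in the 5xFAD libraries, and choroid plexus markers to 399.6, 164 and 8739 TPM and 318 to 3394 TPM (median 629). Mitochondrial transcripts took 10.9% to 14.4% of the TPM in the controls and 9.01% to 10.6% with 5xFAD. The part of the striatal and choroid plexus differences in the results below was not tested. Rescaling without mitochondrial transcripts and Gm23935 gave 258 higher genes, 256 of them among the 306, and 29 lower. Values without control replicate 2 are given beside the immune, astrocyte, lysosomal and other pathway lists. In bulk tissue, more cells of a type and more RNA per cell cannot be told apart.

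**Figure D1:**
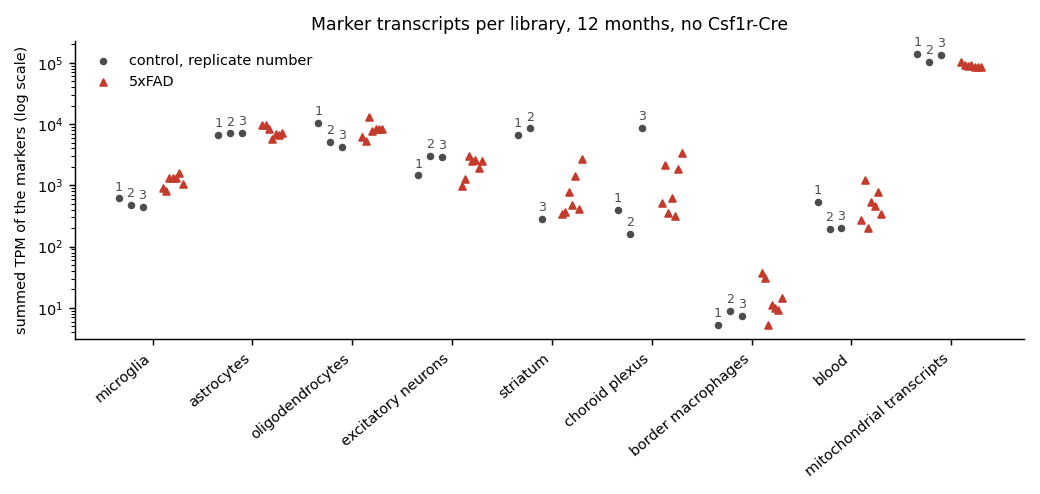
Summed TPM of cell type and region markers (log axis) in the 3 control libraries (circles, numbered by replicate) and the 7 5xFAD libraries (triangles). Microglial markers were above every control in all 7 5xFAD libraries, while striatal markers reached 6606 and 8484 TPM in controls 1 and 2 and 285 TPM in control 3.

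Of 18659 genes tested on log2(TPM + 0.5), 306 (1.64%) were higher and 24 (0.129%) lower with 5xFAD at an adjusted p under 0.05 (limma, Benjamini-Hochberg over all genes). The higher genes had log2 fold changes of 0.52 to 4.98 with a median of 1.42, and in 259 of them every 5xFAD library was above every control. Over all genes tested, 797 (4.27%) had every 5xFAD library above every control and 98 (0.525%) had every one below. The median log2 fold change of all genes tested was 0.08, and 59.8% of them lay above 0. Counts of list members above or below 0 are to be read beside this share. Counting the recovered reads with limma voom gave 303 higher and 70 lower genes, a share of 81.2% higher against 92.7% above. Of those 303 higher genes, 215 were among the 306. Without control replicate 2, 78 genes (0.418%) were higher and 2 lower, and 77 of the 78 were among the 306. Without control replicate 3, 443 were higher, 255 of them among the 306, and 132 lower. Leaving out both control replicate 2 and the 12-month Csf1r-Cre control replicate 2, which had the lowest median correlation (0.886) of the 12-month libraries and enters the shared estimate of spread, gave 124 higher genes, 114 of them among the 306. Protein-coding genes made up 285 of the 306, and 14988 of the 18659 genes tested. Chromosome 17, which carries the major histocompatibility complex, held 28 of its 877 tested genes (3.19%) among the higher ones, the largest share of any chromosome with at least 100 tested genes.

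**Figure D2:**
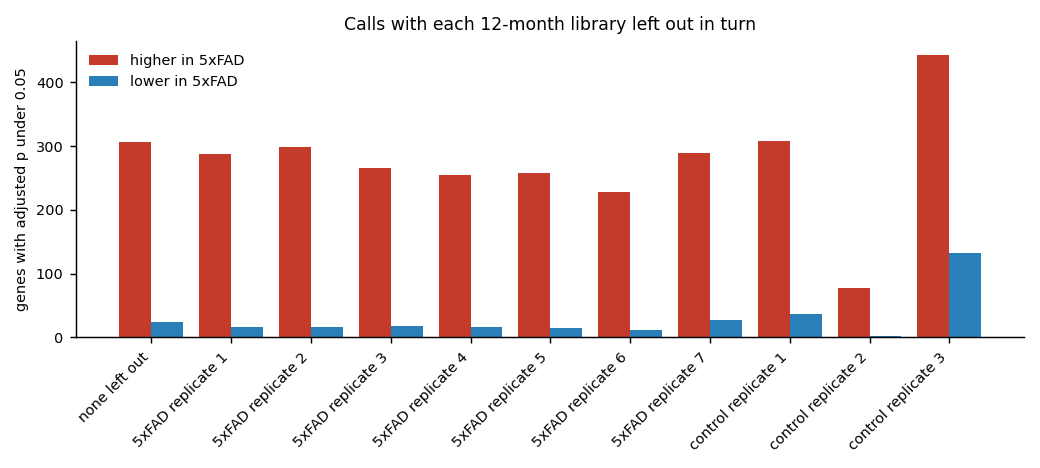
Number of genes with an adjusted p under 0.05 (limma), higher (red) or lower (blue) with 5xFAD, with all 10 libraries and with each left out in turn. The count of higher genes lay between 228 and 308 for 8 of the 10 libraries left out, at 78 without control replicate 2 and at 443 without control replicate 3.

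Plaque-associated microglial genes held the highest fold changes. Of 34 measured members of this list, 20 rose and none fell, 25 had every 5xFAD library above every control, and their median log2 fold change was 1.43. Without control replicate 2, 12 passed and the median was 1.31. Cst7, which encodes the cathepsin inhibitor cystatin F (chr2:150570415-150578944), had 0.783, 1.4 and 0.841 TPM in the controls and 32.5 to 58.8 TPM (median 55.1) with 5xFAD (log2 fold change 4.98 ± 0.55 (SE), adjusted p = 1.93e-07). It had the highest fold change of all genes tested, and no control came near the lowest 5xFAD library. Itgax, the integrin CD11c (chr7:128129547-128150657), had 1.35, 0 and 0.392 TPM in the controls and 19.5 to 29.2 TPM (median 20.6) with 5xFAD (log2 fold change 4.63 ± 0.46 (SE), adjusted p = 1.59e-08). Clec7a, a receptor for fungal glucans (chr6:129461591-129472779), is listed at 0 in control replicate 2, at 2.25 and 0.867 TPM in the other controls, and at 17.1 to 38.5 TPM (median 29.1) with 5xFAD (log2 fold change 4.49 ± 0.52 (SE), adjusted p = 6.66e-07). All 3 genes passed without control replicate 2 as well, at log2 fold changes of 5.16, 4.17 and 3.84.

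Spp1, the secreted matrix protein osteopontin (chr5:104435118-104441050), had 2.47, 13.1 and 6.66 TPM in the controls and 55 to 144 TPM (median 69.8) with 5xFAD (log2 fold change 3.73 ± 0.75 (SE), adjusted p = 0.00235). Replicates 1, 2 and 4 were the high 5xFAD libraries, at 141, 137 and 144 TPM, and the other 4 lay between 55.0 and 69.8 TPM. Gpnmb, a transmembrane glycoprotein of lipid-laden macrophages, had 1.77, 2.72 and 4.999 TPM in the controls and 17.1 to 44.9 TPM (median 25.1) with 5xFAD (log2 fold change 2.98 ± 0.49 (SE), adjusted p = 0.000149). Cd68, a lysosomal glycoprotein of macrophages, had 16.8, 11.7 and 7.93 TPM and 41 to 86.9 TPM (median 67.6) (log2 fold change 2.38 ± 0.33 (SE), adjusted p = 1.46e-05). Both were without overlap between groups and passed without control replicate 2 (adjusted p = 0.0049 and 0.000701). The tetraspanins Cd9 and Cd63 were among the most abundant of the called genes, with 211 to 555 TPM (median 413) and 303 to 528 TPM (median 363) in the 5xFAD libraries. Cd9 had 181, 81.5 and 142 TPM and Cd63 187, 88.7 and 235 TPM in the controls. Their log2 fold changes were 1.52 ± 0.30 and 1.27 ± 0.29 (adjusted p = 0.00173 and 0.00956), and without control replicate 2 neither passed (adjusted p = 0.127 and 0.486).

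**Figure D3:**
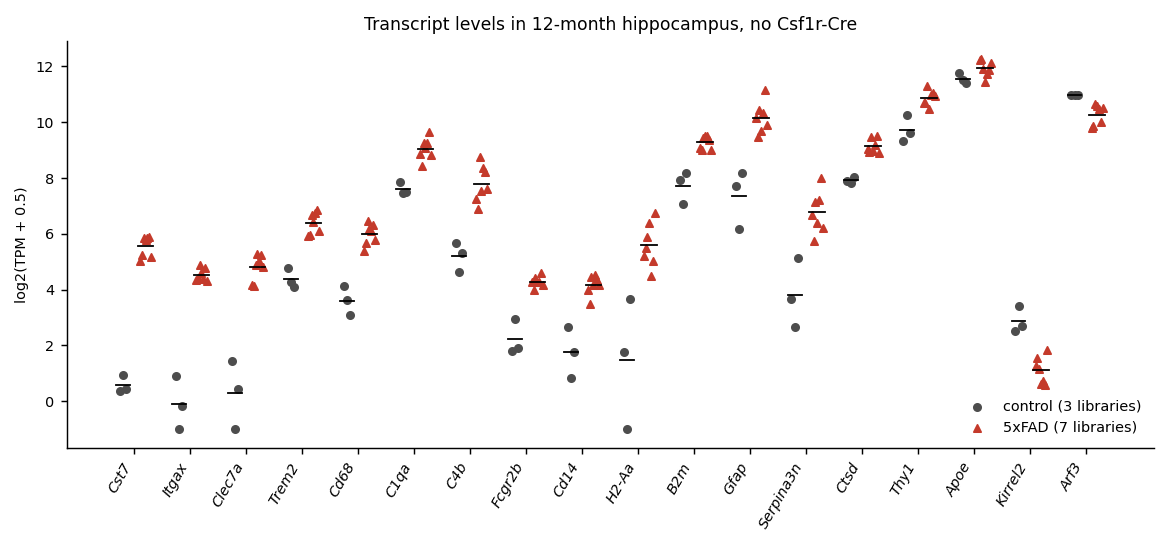
Level of 18 transcripts as log2(TPM + 0.5) in each control library (circles) and each 5xFAD library (triangles), with bars at the group means of the log values. The groups do not overlap for any gene shown except Apoe; Kirrel2 and Arf3 are the 2 genes shown that were lower with 5xFAD.

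The receptor complex that signals amyloid contact was higher as well. TREM2 and ITAM signalling genes, which pass signals from activating receptors through tyrosine-based motifs, had 6 of 14 measured members higher, none lower, and a median log2 fold change of 1.16. Without control replicate 2, 3 passed. Trem2, the receptor itself (chr17:48346401-48354147), had 27.1, 19.1 and 16.5 TPM in the controls and 59.7 to 116 TPM (median 86.3) with 5xFAD (log2 fold change 1.99 ± 0.29 (SE), adjusted p = 2.7e-05), which is 4.1 times as a ratio of mean TPM. Tyrobp, its adaptor (chr7:30413760-30417585), had 62.4, 45.6 and 50.2 TPM and 116 to 199 TPM (median 154) (log2 fold change 1.59 ± 0.25 (SE), adjusted p = 7.06e-05). In both, the lowest 5xFAD library stood above the highest control. Fcer1g, the adaptor shared with Fc receptors, had 62, 49.3 and 52.6 TPM and 89.3 to 226 TPM (median 167) (log2 fold change 1.49 ± 0.30, adjusted p = 0.00251). Ptpn6, a phosphatase that dampens such signals, had a log2 fold change of 1.73 ± 0.32, and Vav1 and Btk, which act downstream, 1.6 ± 0.36 and 1.46 ± 0.34 (adjusted p = 0.00101, 0.00938 and 0.0109). With control replicate 2 left out, Trem2, Tyrobp and Ptpn6 passed (adjusted p = 0.00135, 0.00465 and 0.0126) and Fcer1g, Vav1 and Btk did not (adjusted p = 0.0555, 0.218 and 0.276).

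No gene of the resting state was called lower. Of 20 homeostatic members measured, all 20 had log2 fold changes above 0 (59.8% of all genes tested did), 6 rose and the median was 0.83. Of these, 4 (Fcrls, Aif1 and Gpr183 among them) passed without control replicate 2. Fcrls, a microglial scavenger receptor-like gene (chr3:87250758-87263738), had 34.6, 23.8 and 31.7 TPM in the controls and 71.6 to 139 TPM (median 95) with 5xFAD (log2 fold change 1.69 ± 0.31 (SE), adjusted p = 0.000781), and its groups did not overlap. Aif1, the actin-binding protein IBA1 used to stain microglia, had 19.5, 13.7 and 9.63 TPM and 19.3 to 60.4 TPM (median 43.2) (log2 fold change 1.41 ± 0.26, adjusted p = 0.00101), and 5xFAD replicate 2, at 19.3 TPM, lay just under control replicate 1. The oxysterol receptor Gpr183, the secreted Olfml3 and the lysophospholipid receptor Gpr34 had log2 fold changes of 1.66 ± 0.28, 1.29 ± 0.26 and 0.98 ± 0.27 (adjusted p = 0.000212, 0.00227 and 0.0483). Cx3cr1, the fractalkine receptor, had 23.3, 25.7 and 14.5 TPM in the controls and 32.7 to 58.5 TPM (median 42.4) with 5xFAD, and Csf1r, the receptor that keeps microglia alive, had 32.1, 35.4 and 21.1 TPM and 46.3 to 77.9 TPM (median 56.9). Their log2 fold changes of 1.02 ± 0.37 and 0.97 ± 0.38 did not pass (adjusted p = 0.189 and 0.249), although all 7 5xFAD libraries lay above all 3 controls in both. The 8 microglial marker genes together summed from 444 to 612 TPM in the controls and from 816 to 1611 TPM (median 1320.0) in the 5xFAD libraries.

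Among receptors that take up opsonised or foreign material, 4 Fc gamma receptor genes that bind immunoglobulin G passed. Of 17 measured Fc and phagocytic receptor genes, 6 rose and none fell (median log2 fold change 0.69), and 3 passed without control replicate 2. Fcgr2b, the inhibitory receptor (chr1:170958617-170976547), had 2.999, 7.28 and 3.21 TPM in the controls and 15.4 to 23.6 TPM (median 18.8) with 5xFAD (log2 fold change 2.06 ± 0.35 (SE), adjusted p = 0.000326). Here control replicate 2 was the highest control, and leaving it out gave 2.43 with an adjusted p of 0.000701. Fcgr3, an activating receptor, had 27.4, 16.6 and 27.7 TPM and 43.7 to 97.6 TPM (median 63.9) (log2 fold change 1.5 ± 0.25 (SE), adjusted p = 0.000218). Fcgr1 and Fcgr4, the high-affinity and a further activating receptor, had 4.8, 0.459 and 3.17 TPM and 0.246, 0 and 0.3000 TPM in the controls and 7.2 to 16.8 TPM (median 11.8) and 1.38 to 4.09 TPM (median 2.14) with 5xFAD. Their log2 fold changes were 2.18 ± 0.38 and 2.11 ± 0.38 (adjusted p = 0.000405 and 0.000549; 0.0916 and 0.0269 without control replicate 2). Itgb2, the beta chain of the complement receptor that pairs with Itgax and related chains, had 8.29, 8.86 and 5.53 TPM and 17.6 to 30.6 TPM (median 21) (log2 fold change 1.57 ± 0.39, adjusted p = 0.0214, and 0.104 without control replicate 2).

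Toll-like receptors, which recognise microbial and damage signals, and their adaptors had 9 of 17 measured members higher and all 17 above 0 (median 1.11; 5 passed without control replicate 2, namely Cd14, Cd180, Ly86, Tlr2 and Tlr9). Cd14, the lipopolysaccharide co-receptor (chr18:36725074-36726736), had 5.75, 1.29 and 2.92 TPM in the controls and 10.7 to 22.6 TPM (median 17.7) with 5xFAD (log2 fold change 2.41 ± 0.31 (SE), adjusted p = 4.97e-06). Cd180 and Ly86, a receptor and its partner that modulate such signals, had 3.1, 2.09 and 0.908 TPM and 22.7, 14.5 and 15.2 TPM in the controls and 9.03 to 20.1 TPM (median 12.4) and 43.8 to 83.4 TPM (median 63.9) with 5xFAD. No 5xFAD library overlapped a control in any of the 3, with log2 fold changes of 2.49 ± 0.38 and 1.86 ± 0.27 (adjusted p = 5.25e-05 and 3.23e-05) for the last 2. Tlr2, a receptor for bacterial lipopeptides, had 1.67, 2.18 and 0.9001 TPM and 3.97 to 14 TPM (median 7.57) (log2 fold change 1.98 ± 0.42 (SE), adjusted p = 0.00387). The endosomal DNA sensor Tlr9 stayed low, at 0.918 to 1.83 TPM (median 1.15) with 5xFAD against 0.3997, 0.467 and 0.173 TPM, yet passed (log2 fold change 1.03 ± 0.22, adjusted p = 0.00446). Unc93b1, which carries the endosomal receptors to their compartment, had 23.3, 14.7 and 14.5 TPM and 32.8 to 51.2 TPM (median 47.8) (log2 fold change 1.31 ± 0.26, adjusted p = 0.00248, and 0.0681 without control replicate 2).

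Complement genes rose at the start of the classical pathway and at one of its receptors. Of 15 measured members, 6 rose and none fell (median 1.05), and 3 (C1qa, C1qc and C3ar1) passed without control replicate 2. The C1q chains, which bind targets and open the pathway, lie side by side on chromosome 4. C1qa (chr4:136895917-136898803) had 234, 177 and 182 TPM in the controls and 348 to 794 TPM (median 534) with 5xFAD (log2 fold change 1.43 ± 0.24 (SE), adjusted p = 0.000243), and C1qc had 152, 90.6 and 115 TPM and 243 to 479 TPM (median 377) (log2 fold change 1.56 ± 0.25 (SE), adjusted p = 0.000122). C1qb had 104, 114 and 77.5 TPM and 145 to 269 TPM (median 188) (log2 fold change 1.05 ± 0.28 (SE), adjusted p = 0.0407, and 0.14 without control replicate 2). All 3 chains were without overlap between the groups. C4b, the next component, which astrocytes and oligodendrocytes also make, had 50.03, 24.2 and 38.8 TPM and 118 to 429 TPM (median 194) (log2 fold change 2.6 ± 0.49 (SE), adjusted p = 0.00118), with replicate 3 the highest 5xFAD library, and its adjusted p was 0.055 without control replicate 2. C3ar1, the receptor for a fragment of C3, had 1.13, 0.208 and 0.875 TPM and 2.74 to 5.41 TPM (median 4.42) (log2 fold change 2.01 ± 0.29 (SE), adjusted p = 2.6e-05). Serping1, the inhibitor of C1, had 4.06, 0.394 and 9.13 TPM and 10.5 to 23.7 TPM (median 15.3). Its log2 fold change of 2.23 ± 0.55 (adjusted p = 0.0178) was 1.27 with an adjusted p of 0.806 without control replicate 2, which had the lowest value.

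Promoters of 4 called genes, from C1q, class I and class II presentation, are shown as examples of the motifs searched. Each is the stretch from 200 bases before the annotated start to the base before it, from RefSeq on GRCm38.p6 (the assembly of mm10), on the gene's strand, 5′ to 3′, with the searched motif or its reverse complement in capitals. The C1qc promoter (chr4:136892915-136893114, minus strand) holds the reverse complement of GAGGAAGT, a motif of PU.1, the transcription factor of macrophages and microglia. B2m (chr2:122147487-122147686, plus strand) holds GAAANNGAAA, an interferon-stimulated response element, and H2-Aa (chr17:34287824-34288023, minus strand) and H2-Eb1 (chr17:34305667-34305866, plus strand) hold the class II Y box CTGATTGG or its reverse complement, 51 and 62 bases before the start.
C1qc: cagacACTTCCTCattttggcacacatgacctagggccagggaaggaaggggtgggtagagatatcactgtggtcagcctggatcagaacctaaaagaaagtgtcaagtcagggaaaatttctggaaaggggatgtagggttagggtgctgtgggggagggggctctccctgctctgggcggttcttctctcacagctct
B2m: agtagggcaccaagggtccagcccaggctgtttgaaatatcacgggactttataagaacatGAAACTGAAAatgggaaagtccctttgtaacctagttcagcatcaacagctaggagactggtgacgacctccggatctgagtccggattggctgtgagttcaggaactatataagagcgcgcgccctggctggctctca
H2-Aa: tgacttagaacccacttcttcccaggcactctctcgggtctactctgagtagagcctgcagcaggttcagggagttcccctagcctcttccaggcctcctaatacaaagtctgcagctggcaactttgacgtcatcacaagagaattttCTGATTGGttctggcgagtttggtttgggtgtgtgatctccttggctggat
H2-Eb1: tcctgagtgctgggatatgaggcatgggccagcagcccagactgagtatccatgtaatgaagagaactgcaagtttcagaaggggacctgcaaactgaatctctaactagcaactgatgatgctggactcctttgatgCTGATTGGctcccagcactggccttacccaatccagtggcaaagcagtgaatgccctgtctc

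Both strands of 300-base windows, from 250 bases before to 50 after each start, were searched for 4 motifs. Promoters were found by symbol for 231 of the 306 higher genes, for 12674 tested genes and for 27025 gene symbols in all. A symbol counted as a match if any of its promoters held the motif. The PU.1 motif GAGGAAGT was in 23 of the 231 (9.96%), against 3.39% of tested genes with a promoter and 3.69% of all symbols with one. It was in 2 of the 27 plaque-associated microglial genes with a promoter. The interferon element GAAANNGAAA was in 20 of the 231 (8.66%), against 3.66% and 3.99%, and in 16 of the 26 interferon response genes with a promoter. The Y box CTGATTGG was in 19 of the 231 (8.23%), against 6.37% and 4.70%, and in 7 of 17 class I and 2 of 6 class II presentation genes. TCACGTGA, the element of TFEB, a regulator of lysosomal genes, was in 3 of the 231 (1.30%), against 1.90% and 1.12%, and in 4 of 25 lysosomal genes. None of the 4 motifs contains another, and a match describes the letters in the window only. Spi1, which encodes PU.1, had 13, 10.3 and 8.73 TPM in the controls and 17.2 to 34.3 TPM (median 30.6) with 5xFAD (log2 fold change 1.25 ± 0.28 (SE), adjusted p = 0.00772, and 0.0905 without control replicate 2).

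Class II presentation genes, which display peptides from engulfed protein, had the largest median of the lists, 2.48. Of 9 measured members 5 rose and none fell, and all 9 had values above 0. H2-Aa, the alpha chain whose promoter is shown above (chr17:34282744-34287827), is listed at 0 in control replicate 2, at 2.93 and 12.2 TPM in the other controls, and at 22.2 to 107 TPM (median 44.9) with 5xFAD (log2 fold change 4.13 ± 0.74 (SE), adjusted p = 0.000507). H2-Ab1, the beta chain, had 2.96, 1.97 and 10.4 TPM and 21.6 to 121 TPM (median 41.4) (log2 fold change 3.31 ± 0.61 (SE), adjusted p = 0.000781), and H2-Eb1, the other beta chain shown, had 1.04, 0 and 8.08 TPM and 9.53 to 46.6 TPM (median 16.3) (log2 fold change 3.31 ± 0.69 (SE), adjusted p = 0.00331). In each of the 3, replicate 7 was the highest 5xFAD library, at 107, 121 and 46.6 TPM, and replicate 5 the lowest. H2-DMb1, which helps load peptides, had 3.61, 0 and 3.96 TPM and 7.64 to 16.3 TPM (median 11.1) (log2 fold change 2.48 ± 0.46, adjusted p = 0.00097), and the co-stimulatory ligand Cd86 had 2.29, 2.07 and 1.98 TPM and 4.97 to 10.9 TPM (median 8.06) (log2 fold change 1.65 ± 0.34, adjusted p = 0.0028). Cd74, the invariant chain, had 2.68, 0.675 and 17.8 TPM and 11.2 to 50.9 TPM (median 30.1), overlapped and did not pass (log2 fold change 2.76 ± 0.78, adjusted p = 0.0532). When control replicate 2 was left out, H2-Ab1 and Cd86 passed (adjusted p = 0.0467 and 0.0417) and H2-Aa, H2-Eb1 and H2-DMb1 did not (adjusted p = 0.0974, 0.279 and 0.218). The list median was then 1.64. Beside these, border macrophage markers summed from 5.26 to 9.04 TPM in the controls and from 5.19 to 36.5 TPM (median 11) in the 5xFAD libraries, and B and plasma cell markers from 23.3 to 95.8 TPM in the controls and from 35 to 394 TPM (median 51.1) in the 5xFAD libraries. Their part in the class II values was not tested.

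Class I presentation genes, which display peptides from within the cell, had 9 of 20 members higher, none lower, and 16 with every 5xFAD library above every control (median 1.12). B2m, the light chain (chr2:122147686-122153083), had 246, 135 and 286 TPM in the controls and 513 to 731 TPM (median 660.0) with 5xFAD (log2 fold change 1.54 ± 0.28 (SE), adjusted p = 0.000507). The heavy chain genes H2-K1 and H2-D1, near-identical copies between which reads may have been split or lost, had 95.9, 62.8 and 77.3 TPM and 139.5, 94.1 and 109.8 TPM in the controls and 205 to 319 TPM (median 244) and 321 to 497 TPM (median 425) with 5xFAD. No 5xFAD library of these 3 genes reached down to a control, with log2 fold changes of 1.7 ± 0.34 and 1.82 ± 0.38 for the heavy chains (adjusted p = 0.00248 and 0.0039). Psmb8 and Psmb9, immunoproteasome subunits that cut the peptides, had log2 fold changes of 1.57 ± 0.34 and 2.2 ± 0.37, and the non-classical H2-M3 1.4 ± 0.26 (adjusted p = 0.00539, 0.000228 and 0.00109). With 2 controls left, replicates 1 and 3, none of the 20 passed in limma, although the list median was 1.13. With the 12-month Csf1r-Cre control replicate 2 left out as well, 7 of the 20 passed at the same median, and of the lysosomal and the Fc and phagocytic receptor lists 10 and 6 passed. B2m, H2-K1 and H2-D1 then had log2 fold changes of 1.22, 1.55 and 1.69 with adjusted p = 0.0609, 0.0707 and 0.0916.

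Interferon response genes had 9 of 34 measured members higher, none lower, all 34 above 0 and 23 without overlap (median 1.11). Bst2, a membrane tether against budding viruses, had 19.9, 4.05 and 43.9 TPM in the controls and 49.6 to 93.3 TPM (median 71.5) with 5xFAD (log2 fold change 2.12 ± 0.55 (SE), adjusted p = 0.0293). Control replicate 2 was far below the other 2 controls here, and leaving it out gave 1.21 with an adjusted p of 0.896. Irf8, a transcription factor of microglia and of the interferon response, had 7.81, 5.44 and 3.56 TPM and 10.1 to 28.1 TPM (median 19.97) (log2 fold change 1.66 ± 0.34 (SE), adjusted p = 0.00285). It was the single list member called without control replicate 2 (adjusted p = 0.0382). Ifitm3, which blocks viral entry, had 35.5, 25.3 and 50.5 TPM and 74 to 118 TPM (median 79.2) (log2 fold change 1.23 ± 0.33, adjusted p = 0.0338). The chaperone-like Rtp4, the ubiquitin ligase family member Trim30a and the galectin Lgals9 had log2 fold changes of 1.42 ± 0.35, 2.09 ± 0.44 and 1.12 ± 0.29 (adjusted p = 0.0172, 0.0035 and 0.0303). Trim30a has near-identical neighbours on chromosome 7, so its reads are uncertain.

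Chemokines that draw leukocytes had 7 of 22 measured members of their list higher and none lower (median 0.96; 4 passed without control replicate 2), while Tnf, Il6, Il10 and Il12b were under the filter. Ccl3 and Ccl4, neighbouring chemokine genes on chromosome 11, had 0.807, 0 and 1.67 TPM and 0.117, 0 and 0.457 TPM in the controls and 6.92 to 20.7 TPM (median 16.2) and 3.96 to 13.8 TPM (median 6.6) with 5xFAD. Their log2 fold changes were 3.6 ± 0.54 and 3.56 ± 0.53 (adjusted p = 4.01e-05 and 3.69e-05), and no library overlapped. Ccl6 had 11.2, 7.34 and 5.95 TPM and 47.3 to 113 TPM (median 64.8) (log2 fold change 3.09 ± 0.47 (SE), adjusted p = 5.25e-05). Ccl12, a monocyte chemokine, overlapped by 1 library, with 1.37, 0 and 2.81 TPM and 2.43 to 15.2 TPM (median 5.43) (log2 fold change 2.27 ± 0.52, adjusted p = 0.00974). The growth factor Tgfb1 had 4.44, 6.57 and 2.87 TPM and 11.3 to 22.3 TPM (median 13.6) (log2 fold change 1.6 ± 0.34 (SE), adjusted p = 0.00439), and Cxcl16 had 0.947, 1.13 and 1.93 TPM and 3.4 to 7.88 TPM (median 4.37) (log2 fold change 1.5 ± 0.38, adjusted p = 0.0222). After removal of control replicate 2, Ccl3, Ccl4, Ccl6 and Tgfb1 passed (adjusted p = 0.00635, 0.00251, 0.00234 and 0.0105) and Ccl12 and Cxcl16 did not (adjusted p = 0.507 and 0.231).

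Of other leukocyte genes among the largest changes, Cd52, a small surface glycoprotein of leukocytes, is listed at 0 in control replicate 2, at 17.1 and 14.6 TPM in the other controls and at 32.1 to 101 TPM (median 67.5) with 5xFAD. Its log2 fold change of 3.49 ± 0.61 (adjusted p = 0.00041) was 1.81 with an adjusted p of 0.107 without that library. Slamf9 and Cd48, immune receptors of the SLAM family, had log2 fold changes of 2.92 ± 0.42 and 2.8 ± 0.45 (adjusted p = 2.6e-05 and 9.83e-05) and passed without control replicate 2 too (adjusted p = 0.00655 and 0.0203). Trac, the constant region of the T cell receptor alpha chain, was the 1 gene called among 9 measured T and NK cell markers. It had 0.344, 0 and 0.783 TPM in the controls and 1.15 to 5.17 TPM (median 1.62) with 5xFAD (log2 fold change 1.69 ± 0.40 (SE), adjusted p = 0.0135, and 0.372 without control replicate 2), with replicates 1 and 2 highest at 5.17 and 4.41 TPM. Cd3e, Cd3g, Cd8a and Cd8b1 were under the filter. Cd4, which striatal markers accompanied, had 35.8, 69.6 and 0.287 TPM in the controls and 0.375 to 12.8 TPM (median 0.984) with 5xFAD and did not pass (adjusted p = 0.516).

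Reactive astrocyte genes had 7 of 21 measured members higher, none lower, and all 21 above 0 (median 1.18), while none of the 11 general astrocyte markers passed (median 0.40). Gfap, the intermediate filament of astrocytes (chr11:102887336-102900912), had 211, 72 and 288 TPM in the controls and 703 to 2281 TPM (median 1142) with 5xFAD (log2 fold change 2.8 ± 0.45 (SE), adjusted p = 0.000113). Serpina3n, an acute-phase protease inhibitor (chr12:104406729-104414329), had 12.1, 5.87 and 34.5 TPM and 53.6 to 259 TPM (median 101) (log2 fold change 2.95 ± 0.53 (SE), adjusted p = 0.000507). Replicate 6 was the highest 5xFAD library in both, at 2281 and 259 TPM, and replicate 2 the lowest, and control replicate 3 was the highest control. Aspg, an asparaginase, Osmr, the oncostatin M receptor, and Timp1, a metalloproteinase inhibitor, had log2 fold changes of 1.95 ± 0.38, 1.67 ± 0.37 and 2.29 ± 0.54 (adjusted p = 0.00172, 0.00791 and 0.0119). Aqp4, the water channel of astrocyte endfeet, had 29.7, 27.9 and 41.7 TPM and 38 to 130.4 TPM (median 59.8) and did not pass (log2 fold change 1.1 ± 0.48, adjusted p = 0.345). Without control replicate 2, Gfap alone of the list passed (log2 fold change 2.21, adjusted p = 0.0213) and the list median was 0.96. Serpina3n then had 2.37 (adjusted p = 0.0561).

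Lysosomal genes break down what the cell takes up. Of 31 measured members 13 rose and none fell, 20 had no overlap between groups, and the median was 0.65. Ctsd, the aspartyl protease cathepsin D (chr7:142375911-142388038), had 239, 224 and 264 TPM in the controls and 478 to 735 TPM (median 532) with 5xFAD (log2 fold change 1.23 ± 0.28 (SE), adjusted p = 0.0086). Ctsh, a cysteine aminopeptidase, had 30.00, 24.2 and 27.2 TPM and 69.6 to 112 TPM (median 75.7) (log2 fold change 1.57 ± 0.24 (SE), adjusted p = 5.25e-05), and the cysteine protease Ctsl had 97.1, 95.6 and 113 TPM and 169 to 262 TPM (median 199) (log2 fold change 0.98 ± 0.22 (SE), adjusted p = 0.00731). These 3 proteases differed in size of change, yet in each every 5xFAD library was above every control. Gusb, beta-glucuronidase, had 15.6, 11 and 13.4 TPM and 30.2 to 40.9 TPM (median 35.9) (log2 fold change 1.42 ± 0.23 (SE), adjusted p = 9.81e-05). Grn, progranulin, a lysosomal and secreted protein near an Alzheimer's disease risk locus, had 97.5, 105 and 92.3 TPM and 188 to 303 TPM (median 224) (log2 fold change 1.22 ± 0.28 (SE), adjusted p = 0.0086). With control replicate 2 left out, 4 members passed, among them Cd68, Ctsh and Gusb (adjusted p = 0.000701, 0.00302 and 0.00674), and Ctsd, Ctsl and Grn did not (adjusted p = 0.121, 0.107 and 0.0654).

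Of the lipid transport and cholesterol genes, 3 of 22 rose, none fell, and the median was 0.47. Ch25h, which makes the immune oxysterol 25-hydroxycholesterol (the ligand pathway of Gpr183), had 0.0572, 0 and 1.06 TPM in the controls and 2.2 to 5.26 TPM (median 3.4) with 5xFAD (log2 fold change 2.31 ± 0.42 (SE), adjusted p = 0.000781, and 0.0446 without control replicate 2). Npc2, which hands cholesterol out of the lysosome, had 101, 60.4 and 85.8 TPM and 116 to 144 TPM (median 122) (log2 fold change 0.65 ± 0.18, adjusted p = 0.0451), and the fatty acid binding protein Fabp5 68.1, 53.4 and 61.6 TPM and 72.6 to 100.2 TPM (median 88) (log2 fold change 0.53 ± 0.14, adjusted p = 0.0334). Neither of the last 2 passed without control replicate 2 (adjusted p = 0.81 and 0.48) or under median-of-ratios scaling. Among 23 measured genes that lie by risk loci of Alzheimer's disease, 5 rose. They were Trem2, Grn and Spi1, given above, and the low-expressed Rin3 and Ms4a6c, at 0.981 to 1.84 TPM (median 1.37) and 0.819 to 2.19 TPM (median 1.08) with 5xFAD (log2 fold changes 1.39 ± 0.38 and 1.22 ± 0.30, adjusted p = 0.0445 and 0.018). Trem2 was the 1 that passed without control replicate 2.

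**Figure D4:**
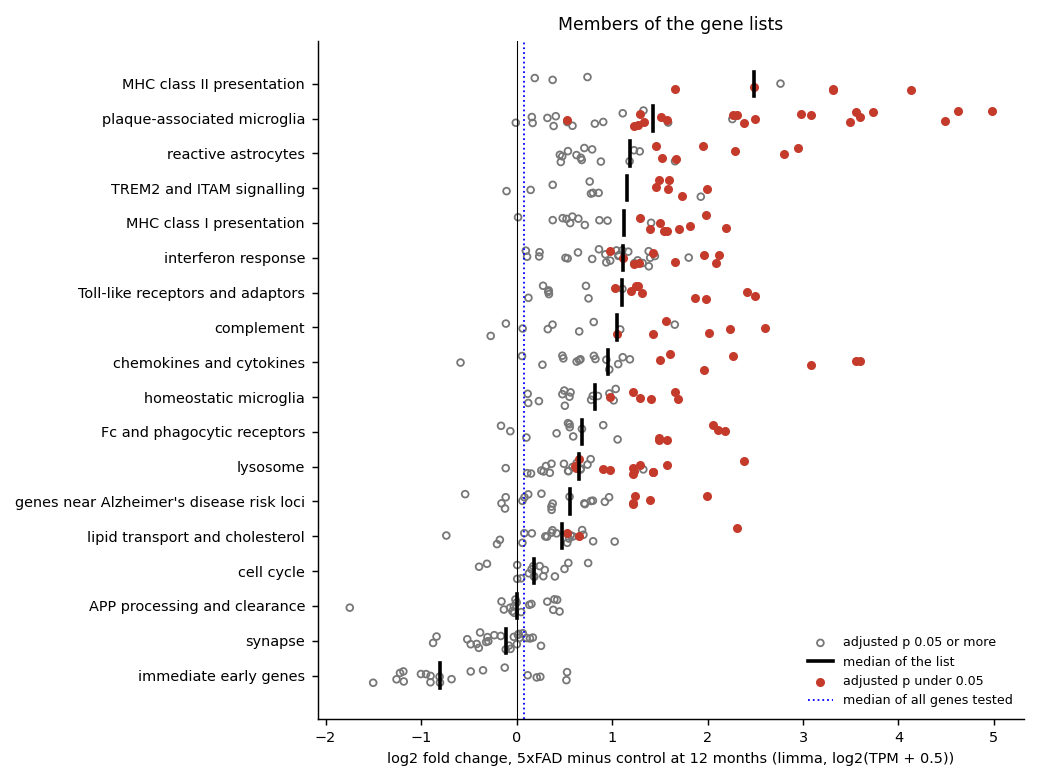
Log2 fold change (5xFAD minus control, log2(TPM + 0.5), limma) of each measured member of 18 gene lists; filled points passed an adjusted p of 0.05, black bars are list medians and the dotted line is the median of all genes tested (0.08). 14 lists hold filled points, and the cell cycle, APP processing, synapse and immediate early gene lists hold none.

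No member passed in 4 lists. APP processing and clearance genes had a median log2 fold change of 0.0015 over 17 members, synapse genes -0.11 over 25 and cell cycle genes 0.18 over 17. At an unadjusted p under 0.05, 2, 0 and 0 members were found in limma, beside 2102 of all 18659 genes tested (11.3%). Immediate early genes, which neurons switch on with activity, had 15 of 20 members below 0 and a median of -0.80, with 3 at an unadjusted p under 0.05. Of all 18659 genes tested, 7399 were below 0. Their summed level was 690.3, 1086 and 609 TPM in control replicates 1, 2 and 3 and 345 to 593 TPM (median 452) with 5xFAD, below every control in all 7. Arc, a synaptic plasticity gene, had 27.8, 47.1 and 24.9 TPM in the controls and 5.59 to 21.1 TPM (median 11.3) with 5xFAD, and Junb had 145, 166 and 101 TPM and 50.1 to 81.1 TPM (median 68.3). Their groups did not overlap, and their log2 fold changes of -1.5 ± 0.74 and -1.001 ± 0.50 did not pass (adjusted p = 0.445 and 0.443). The same list had a median of -0.80 for 5xFAD at 4 months and 0.58 for 5xFAD with Csf1r-Cre at 12 months, values from other libraries. The last value includes the Csf1r-Cre control replicate 2 described above. When control replicate 2 without Cre was left out, the medians of the 12-month comparison without Cre were -0.35 for immediate early genes and 0.28 for APP processing. They were 0.37 for synapse and -0.03 for cell cycle genes, so those of synapse and cell cycle genes changed sign, and no member passed.

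Cell type and region markers other than those of microglia and T cells gave no call. Striatal markers had a median log2 fold change of -1.67 with all 13 below 0, and control replicates 1 and 2 were the high libraries. Ppp1r1b, the dopamine signalling protein DARPP-32, had 1600.0, 2439 and 149.8 TPM in the controls and 80.6 to 711 TPM (median 173) with 5xFAD. Ttr, the choroid plexus transthyretin, had 107, 8.87 and 6772 TPM and 13.1 to 2494 TPM (median 261). Oligodendrocyte markers had a median of 0.44 with 12 of 12 above 0, beside 59.8% of all genes tested. They summed from 4258 to 10398 TPM in the controls and from 5278 to 12914 TPM (median 8284) in the 5xFAD libraries. Medians were -0.11 for excitatory neurons, -0.03 for endothelium, 0.76 for border macrophages, 0.46 for monocytes and neutrophils and 0.74 for blood. Mitochondrial transcripts had a median of -0.51, and their sum was below every control in all 7 5xFAD libraries. Of hippocampal markers, those of CA pyramidal cells summed from 307 to 472 TPM in the controls and from 258 to 530.5 TPM (median 362) in the 5xFAD libraries. Dentate granule cell markers summed from 261 to 275 TPM in the controls and from 119.8 to 457 TPM (median 318) in the 5xFAD libraries. Both were present in all 10 libraries, but every library is titled hippocampus. With no other region to compare, these sums cannot decide whether the tissue label holds.

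The 24 lower genes had log2 fold changes of -0.63 to -2.08, and 12 of them had every 5xFAD library below every control. Their number was 2, 132 and 37 without control replicates 2, 3 and 1, and 11 and 14 without 5xFAD replicates 6 and 5. Kirrel2, a cell adhesion protein of the immunoglobulin superfamily (chr7:30447534-30457690), had 5.18, 10.1 and 6.05 TPM in the controls and 1.01 to 3.03 TPM (median 1.75) with 5xFAD (log2 fold change -1.77 ± 0.31 (SE), adjusted p = 0.000468). It passed without control replicate 2 as well (log2 fold change -1.5, adjusted p = 0.0371). Arf3, a small GTPase of the Golgi (chr15:98736634-98763214), was the most abundant lower gene, with 1991, 2006 and 2018 TPM in the controls and 886 to 1607 TPM (median 1428) with 5xFAD (log2 fold change -0.70 ± 0.18 (SE), adjusted p = 0.0303). Its 3 controls lay close together, and the 5xFAD libraries spread widely below them. Rasl10b, a Ras-like GTPase, had 357, 392 and 249 TPM and 132 to 265 TPM (median 186) with 1 library above the lowest control (log2 fold change -0.87 ± 0.21 (SE), adjusted p = 0.0172). Agtr1a, the angiotensin receptor, had 2.59, 5.34 and 2.02 TPM and 0.336 to 1.46 TPM (median 0.788), Nrarp, a Notch target, 4.25, 8.37 and 4.7 TPM and 2.25 to 3.34 TPM (median 2.82), and Ppp1r3g, a glycogen-targeting phosphatase subunit, 8.54, 10.5 and 12.3 TPM and 2.99 to 7.14 TPM (median 4.56). None of those 3 overlapped, at log2 fold changes of -1.51 ± 0.37, -0.91 ± 0.24 and -1.1 ± 0.30 (adjusted p = 0.018, 0.0297 and 0.0445). Rab40c had 29.4, 47.1 and 30.5 TPM and 15.9 to 28.4 TPM (median 23.9) (adjusted p = 0.0445), Gdf7 0.438, 1.96 and 1.87 TPM and 0.0812 to 0.651 TPM (median 0.183) (adjusted p = 0.00428), and Pnmt, which makes adrenaline, 5.41, 4.19 and 1.08 TPM and 0 to 1.08 TPM (median 0.48) (adjusted p = 0.0212). Snora69, a small nucleolar RNA, rests on 1 library, at 7.44 TPM in control replicate 2, 0.590 TPM in replicate 1 and 0 elsewhere. Of the lower genes named here, Kirrel2 is the 1 that passed without control replicate 2.

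The difference between 12 and 4 months was tested as 1 contrast of the 5xFAD effects, and 15 genes (0.0804% of 18659) passed, all with a larger difference at 12 months. Over all genes tested, 80.4% had a difference above 0 and the median was 0.31, so most genes had this direction. All 15 genes that passed were higher with 5xFAD at 12 months, at log2 fold changes of 1.41 to 4.63. At 4 months they lay between -0.55 and 1.72 and none was called, but only 2 of all 18659 genes were called there. Itgax had 0.591, 0.833, 1.19, 5.41 and 5.97 TPM in the 5 5xFAD libraries at 4 months and 0 to 0.530 TPM (median 0.335) in 8 controls, so 2 of the 5 young libraries stood well above the rest and all stayed below the lowest 12-month 5xFAD library, at 19.5 TPM. The difference of its effects was 2.91 ± 0.59 on the log2 scale (adjusted p = 0.0317). H2-Aa had the largest difference, 4.68 ± 0.95 (adjusted p = 0.0317), from -0.55 at 4 months to 4.13 at 12. Mamdc2, an extracellular matrix protein, and Hpse, heparanase, which cuts heparan sulphate, went from -0.16 and 0.01 to 2.79 and 2.83 (differences 2.95 ± 0.48 and 2.82 ± 0.48, adjusted p = 0.00234 and 0.00453). Bcl3, a regulator of NF-kappaB, went from -0.15 to 2.83, and Cybb, the catalytic subunit of the phagocyte NADPH oxidase, from -0.05 to 2.50 (adjusted p = 0.0189 and 0.0402). The lysosomal genes Atp6v0d2 (a proton pump subunit), Ctse and Ctsh had differences of 2.08 ± 0.32, 1.57 ± 0.32 and 1.49 ± 0.31 (adjusted p = 0.00201, 0.0327 and 0.0374). The immune genes Ly9, Cd14, Ptprc and Il4ra, the protease gene Plau, and Ccdc163 made up the other 6, with differences of 1.86 to 2.26.

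The number of genes in this difference moved with single libraries. It was 67, 38, 36, 24 and 23 without 12-month control replicates 3 and 1, 4-month 5xFAD replicate 4 and 4-month control replicates 1 and 6. It was 3, 4 and 6 without 4-month 5xFAD replicates 3, 1 and 2, 4 without 12-month control replicate 2, 6, 7 and 9 without 12-month 5xFAD replicates 3, 6 and 7, and 7 without either of 4-month control replicates 7 and 8. Limma voom on recovered reads called 1. The median log2 fold change at 4 months was 0.21 for the plaque-associated list, 0.14 for TREM2 and ITAM signalling, -0.33 for complement and -0.12 for class II, beside -0.23 over all genes tested. Over the 306 genes called at 12 months, chosen on the 12-month libraries, the median was 0.18 at 4 months against 1.42 at 12.

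**Figure D5:**
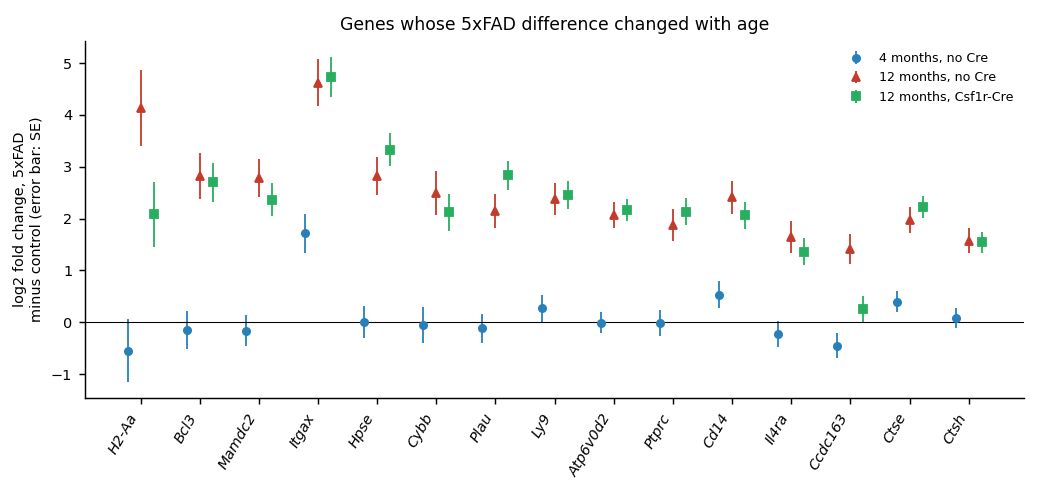
Log2 fold change of 5xFAD against control (SE bars, limma) at 4 months without Cre (circles), 12 months without Cre (triangles) and 12 months with Csf1r-Cre (squares) for the 15 genes whose difference between ages passed. At 4 months the points lie between -0.55 and 1.72, at 12 months between 1.41 and 4.63, and with Csf1r-Cre between 0.26 and 4.73.

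The 5xFAD effect at 12 months was also set against the effect in mice with Csf1r-Cre, which share no library with the groups above. Of 18659 genes, 0 (0%) differed at an adjusted p under 0.05 in limma, while 2156 had an unadjusted p under 0.05, and voom on recovered reads also called 0. The smallest p was that of Gdf7, with a log2 fold change of -1.20 without and 0.53 with Csf1r-Cre (difference 1.73 ± 0.33, adjusted p = 0.0985). H2-Aa was 4.13 without and 2.08 with Csf1r-Cre, a difference of -2.05 ± 0.97 (adjusted p = 0.424), and Itgax 4.63 and 4.73, a difference of 0.11 ± 0.60 (adjusted p = 0.935). With standard errors of this size the missing calls do not show that the effects were alike. The count was 33 without control replicate 3, 5 without replicate 3 of 5xFAD with Csf1r-Cre, 1 without control replicate 1 or 5xFAD replicate 7, and 0 without any other library. List medians with Csf1r-Cre were 1.98 for the plaque-associated genes, 1.67 for TREM2 and ITAM signalling, 1.83 for class II, 1.21 for class I and 1.90 for reactive astrocytes. Those of synapse and immediate early genes were 0.93 and 0.58, beside -0.11 and -0.80 without Cre, or 0.37 and -0.35 without control replicate 2, and the median over all genes tested was 0.27 with Csf1r-Cre. All medians with Csf1r-Cre include the Csf1r-Cre control replicate 2, which had a median correlation of 0.886. It held 12559 genes at 0.5 TPM or more, against a median of 15336 over all libraries. Its part in these medians was not tested.

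The 7 5xFAD libraries were not spread evenly over the 306 higher genes. Replicate 6 was the highest of the 7 for 136 of the 306, and its median deviation from the 5xFAD mean was 0.32 on the log2 scale. Replicates 2, 1 and 7 were the low libraries, at -0.24, -0.18 and -0.16, and replicate 2 was the lowest for 114 genes. The 3 controls lay at -1.15, -1.80 and -1.22 below the 5xFAD mean, with replicate 2 lowest. Class II genes followed another order: the summed level of that list was highest in replicate 7, at 594 TPM, and lowest in replicate 5, at 326 TPM, whereas reactive astrocyte genes summed to 3366 TPM in replicate 6 and 1085 TPM in replicate 2. Border macrophage markers were high in replicates 1 and 2, at 36.5 and 30.8 TPM against 5.19 to 14.7 TPM in the other 5, and the microglial marker sum was lowest in those same 2 libraries, at 919.5 and 816 TPM.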

How the data were processed

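RNA sequencing of hippocampus was deposited as 1 table of TPM values (levels scaled for gene length and library total) for 54532 genes and 45 libraries, made by the authors with STAR, featureCounts, edgeR and limma on mm10, per the submitters' processing notes. Their versions, the annotation and any use of strand were not given in the sources used here. Reads without strand information cannot be told apart between overlapping and antisense genes, and near-identical copies (H2 class I genes, C4b, Ccl, Ifitm and Trim30 families) are uncertain. Groups followed the sample titles. The strain entry of the 12-month 5xFAD samples disagrees with their titles.

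Genes with at least 0.5 TPM in at least 3 libraries (18659) were tested on log2(TPM + 0.5) with limma 3.58.1 in R 4.3.3: 1 mean per group over all 45 libraries, which share 1 estimate of spread, empirical Bayes with a trend, two-sided, Benjamini-Hochberg, threshold 0.05. A fold change on this scale understates that of low genes. Apoe, App and Thy1 were tested by exact permutation of the 10 libraries (scipy 1.17.1). Every gene above 0 had TPM that were whole reads (within 0.02 reads) at the listed length (15330 genes) or at another length (17693), which gave the recovered reads. The other length was the smallest whole number of bases that fitted. For a gene above 0 in few libraries a fitting length is easily found, so the match does not show that its reads are right. The model was tested on simulated data. Alternatives were another pseudocount, filter, scaling or set of samples, array weights, a replicate block, leaving out libraries and, chosen after seeing the data, voom on recovered reads, a Y-linked covariate and leaving out 1 4-month library whose levels went against its Csf1r-Cre title.

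Members, gene lists and motifs were chosen with earlier results of these data known. Genes named were Apoe, App and Thy1, the 20 highest and 20 lowest fold changes and 10 highest levels among called genes (mean of at least 1 TPM, no predicted models or sex-linked genes), up to 6 members of each list by p, and list members called in a difference of effects; not all are printed. Atp6v0d2, Ctse, Ly9, Plau, Ptprc, Il4ra and Ccdc163 were added after their values were seen. Some genes are not reported here.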

Additional observations from a re-analysis of the deposited data

Results flagged for a closer look

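In 4 of the 116 genes named with values, 1 of the 7 5xFAD libraries lay far above the other 6 by Dixon's test; chance gives this in about 1 in 20 groups. Replicate 6 stood apart for Trim30a at 10.5 TPM, Cxcl16 at 7.88 TPM and Ifitm3 at 118 TPM, and it was also the highest library for 136 of the 306 higher genes. Replicate 4 stood apart for Atp6v0d2 at 2.93 TPM.

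The 5xFAD effect differed between 12 and 4 months in 15 genes by the test of the difference itself (limma, adjusted p under 0.05). Of all genes tested, 80.4% had a difference above 0, with a median of 0.31. On the log2 scale the 12-month effect was larger by 4.68 for H2-Aa, 2.97 for Bcl3, 2.95 for Mamdc2, 2.91 for Itgax, 2.82 for Hpse and 2.55 for Cybb. It was larger by 2.26 for Plau, 2.11 for Ly9, 2.08 for Atp6v0d2, 1.89 for Ptprc, 1.88 for Cd14, 1.87 for Il4ra, 1.86 for Ccdc163, 1.57 for Ctse and 1.49 for Ctsh. Control replicate 2 at 12 months is listed at 0 for H2-Aa and Itgax, and without that library 4 genes passed in the difference between ages.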

How the results depend on the processing

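Counts are given as genes higher, genes lower and genes in the difference between ages, beside 306, 24 and 15. They were 327, 10 and 3 with a pseudocount of 0.1, 269, 52 and 3 with no filter, 307, 15 and 15 with TPM of at least 1 in 3 libraries, 257, 49 and 8 with median-of-ratios scaling, and 258, 29 and 6 after rescaling without Gm23935 and mitochondrial transcripts. They were 169, 3 and 22 with only the compared groups, 468, 57 and 147 with array weights, 124, 5 and 5 without the libraries that stand apart (control replicate 2 and 12-month Csf1r-Cre control replicate 2), and 303, 70 and 1 with voom on recovered reads, which was chosen after seeing the data. The difference with Csf1r-Cre, 0 in limma, had 2 genes with a pseudocount of 1, 1 with no filter, 1 with median-of-ratios scaling and 4 with array weights. Higher calls were 84.0% of all with median-of-ratios scaling, against 92.7%. Of the 306 higher genes, 210 were also called with median-of-ratios scaling, 265 with array weights, 140 with only the compared groups and 215 with voom.

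Leaving out 1 library gave 78 to 443 higher genes, 2 to 132 lower, 3 to 67 in the difference between ages and 0 to 33 in that with Csf1r-Cre. The log2 difference of Thy1 was 0.93 to 1.40, Apoe 0.31 to 0.48 and App -0.32 to 0.42; with 2 controls left, the permutation test cannot pass after adjustment. No called gene among the 116 named changed sign in limma (App and Ttr, not called, did), 54 lost their call without control replicate 2 and 0 with the Y-linked level as a covariate. Replicate numbers did not pair the samples (correlations of -0.118, 0.209 and -0.214); the replicate block gave 196 higher genes, 24 lower and 1 in the difference between ages. The causes of these shifts were not tested. Fits with libraries left out also rest on fewer samples. With 3 controls and 1 read on 1000 bases worth up to 0.0838 TPM, values of low genes rest on few reads.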
